A study of Mus musculus with 16 samples.

Results

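Thy1, Pdgfra, Pdgfrb, Cd44, Eng, Nt5e and Ly6a are 7 mouse genes for surface proteins by which fibroblasts and other mesenchymal cells are commonly sorted. They were taken as a fixed list, with every open chromatin region that overlapped one of their RefSeq gene spans extended by 50 kb on each side. This gave 132 of the 165616 regions of the series: 24 at Pdgfra, 24 at Pdgfrb, 22 at Cd44, 22 at Eng, 18 at Thy1, 18 at Nt5e and 4 at Ly6a. Open chromatin was read by ATAC-seq: the enzyme Tn5 cuts accessible DNA and tags it for sequencing.

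The samples follow a chemical conversion of mouse embryonic fibroblasts (MEF) into induced pluripotent stem cells (iPSC), with 2 samples at each of 8 stages. Day 0 was OG2 MEF of low passage from 129XOG2 E13.5 embryos, grown in DMEM with fetal bovine serum. Days 2, 4, 6, 8, 10 and 12 were intermediates of the same strain in reprogramming medium, whose composition is not given in the labels, renewed every 2 days and daily from day 4 to day 8. The iPSC, of the same strain, grew on feeder cells in medium with LIF, CHIR99021 (a GSK3 inhibitor) and PD0325901 (a MEK inhibitor). OG2 cells carry, as background, a green fluorescent reporter driven by Pou5f1 sequences. Feeder cells are usually fibroblasts themselves, and the share of feeder DNA in the iPSC samples was not tested. The labels do not say whether the 2 samples of a stage came from separate embryos or cultures. The authors deposited 1 peak list per stage, so there is no spread between replicates, no test between stages was possible, and every difference below is between single lists.

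PDGFRA and PDGFRB are receptor tyrosine kinases that bind platelet-derived growth factors and drive division and migration of mesenchymal cells. PDGFRA is also made by primitive endoderm, an extraembryonic lineage. Endoglin (Eng) is a co-receptor of the TGF-beta family that is abundant on endothelium and on cultured mesenchymal cells, and CD44 is the main receptor for hyaluronan in the matrix. THY1 (CD90), NT5E (CD73, which makes adenosine from AMP outside the cell) and LY6A (Sca-1) are held in the membrane by a lipid anchor. Loss of THY1 and CD44 surface staining is widely used to follow fibroblasts on their way to iPSC, and accessible promoters and distal elements are the sites through which such genes are read and controlled.

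A region is a stretch of the genome covered by at least 1 peak in any list, and it is called covered in a list when a peak of that list overlaps it by at least 1 bp. Below, a region is MEF-only if the day 0 list covers it and the iPSC list does not, and iPSC-only if the opposite holds. It is shared if both lists cover it and intermediate-only if neither does. Merging can join peaks that only touch in a chain: of the 68 member regions covered in 2 or more lists, 12 had no base common to all their peaks (17.6%, against 11.6% of all such regions). The spread of summits or the overlap of peaks is given below for the described regions this touches. In all 17 shared member regions the day 0 and iPSC peaks overlapped each other directly. The lists differed in depth. Their background pileup, the lowest number of stacked fragments from which the authors' caller computed an enrichment, was 1.96, 3.08, 1.23, 2.12, 0.682, 0.968 and 0.248 for days 0, 2, 4, 6, 8, 10 and 12, and 1.90 for iPSC. Day 0 and iPSC were therefore close in depth, and days 8, 10 and 12 were shallow. Below, a pileup is the whole number of fragments stacked at a peak's summit, as recovered from the deposited values, and a percentile is the rank of a peak's score within its own list, where 100 is the best. At day 0, 18 of 20 other fibroblast and mesenchymal surface genes had a covered start, as did 3 of 10 endothelial and blood genes (Kdr, Tek and Flt1), against 56.4% of all protein-coding genes. The endothelial and blood count was between 3 and 5 in every list. Among its other genes, Cdh5 was covered at days 2, 8, 10 and 12 and Cd53 at days 2, 4, 6, 8 and 10, and Tie1, Emcn, Ptprc, Itgam and Csf1r in no list. At day 0 the start was also covered at 8 of 12 surface genes of pluripotent and epithelial cells. The same held for 16 of 20 ligands and partners of the members. In iPSC, 14 of the 20 fibroblast and mesenchymal genes had a covered start, against 59.9% of all genes.

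The gene starts separate into genes covered all along, genes covered in only some lists and a gene never covered. A start was called covered when a region lay within 1 kb of it. Promoter sequences were found in RefSeq's table (GRCm38.p6, 250 bases before to 50 bases after the start site) for 4 of the 7 genes, and they are shown because Cd44 and Nt5e were covered at this window in all 8 lists, Eng at day 0 alone and Pdgfra at day 6 alone. Each is read 5′ to 3′ on the strand of the gene, and capitals mark the GC box GGGCGG on either strand. The Cd44 window is chr2:102901616-102901915 on the minus strand, the Nt5e window chr9:88327359-88327658 on the plus strand, the Eng window chr2:32646345-32646644 on the plus strand and the Pdgfra window chr5:75152001-75152300 on the plus strand.
Cd44: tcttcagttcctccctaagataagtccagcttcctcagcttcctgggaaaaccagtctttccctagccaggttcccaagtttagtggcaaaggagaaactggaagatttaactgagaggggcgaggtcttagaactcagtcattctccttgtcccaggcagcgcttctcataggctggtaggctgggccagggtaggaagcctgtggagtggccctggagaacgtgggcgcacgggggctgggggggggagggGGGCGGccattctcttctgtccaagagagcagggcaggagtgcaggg
Nt5e: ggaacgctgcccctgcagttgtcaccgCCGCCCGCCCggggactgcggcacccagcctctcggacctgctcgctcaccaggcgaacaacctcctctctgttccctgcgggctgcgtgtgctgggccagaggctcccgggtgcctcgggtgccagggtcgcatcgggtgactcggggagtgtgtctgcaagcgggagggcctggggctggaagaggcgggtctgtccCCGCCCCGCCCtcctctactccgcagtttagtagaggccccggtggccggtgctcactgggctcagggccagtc
Eng: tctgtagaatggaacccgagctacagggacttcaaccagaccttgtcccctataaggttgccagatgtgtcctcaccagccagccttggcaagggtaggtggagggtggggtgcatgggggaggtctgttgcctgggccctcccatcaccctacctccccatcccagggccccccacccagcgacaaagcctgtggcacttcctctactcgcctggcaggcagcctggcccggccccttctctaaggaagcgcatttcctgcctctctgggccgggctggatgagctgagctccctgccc
Pdgfra: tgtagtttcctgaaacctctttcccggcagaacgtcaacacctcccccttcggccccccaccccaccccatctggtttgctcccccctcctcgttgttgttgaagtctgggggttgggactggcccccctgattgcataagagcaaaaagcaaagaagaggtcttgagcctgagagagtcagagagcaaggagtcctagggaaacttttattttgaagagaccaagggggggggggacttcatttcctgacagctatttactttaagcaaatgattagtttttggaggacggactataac

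The Nt5e window was the richest in CpG of the 4, with 23 CpG and 71.0% GC, and it held 4 GC boxes in 2 pairs that overlap within each pair. The Cd44 window held 6 CpG, 58.0% GC and 1 GC box that begins 3 bases after the start site. The Eng window held 6 CpG and 63.3% GC, the Pdgfra window 5 CpG and 51.0% GC, and neither held a GC box. Over 32851 mouse promoter windows of the same length, the median was 7 CpG and 52.7% GC, and 35.7% held a GC box. None of the 4 windows held TGANTCA (AP-1, in 7.81% of all promoters), GGAATG (TEAD, 14.7%), TGTGGT (RUNX, 16.8%), CCAAT (37.4%) or TATAAA (13.6%) on either strand, which says only that these letters are not in these windows. Thy1, Pdgfrb and Ly6a had no entry.

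Of the 7 genes, 5 had a covered start at day 0 and 5 in iPSC, against 56.4% and 59.9% of all 21887 protein-coding genes. For days 2, 4, 6, 8, 10 and 12 the counts were 5, 4, 5, 4, 4 and 2, against 62.7%, 53.9%, 55.9%, 57.3%, 58.3% and 46.3% of all genes. The 5 genes at day 0 and in iPSC were not the same, because Eng was covered only at day 0 and a region at the start of Pdgfra was covered in iPSC and not at day 0. That iPSC peak itself lay more than 1 kb from the start site, at percentile 1.02 of its list. When a peak of the list itself had to lie within 1 kb, a rule added after the data were seen, iPSC had 4 covered starts and the other 7 counts stayed as given. Where a gene had no promoter entry (Thy1, Pdgfrb and Ly6a), a region at either end of its span counted, because the gene table gives no strand.

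Pooled over the 7 genes, coverage stayed close to that of all regions in most lists. Of the 132 regions, the day 0 list covered 48 (36.4%, against 29.4% of all regions), and the lists of days 2, 4 and 6 covered 65, 26 and 54 (49.2%, 19.7% and 40.9%, against 49.9%, 24.4% and 33.5%). At days 8 and 10, 42 regions were covered in each (31.8%, against 23.5% and 25.7%). At day 12 it was 19 (14.4% against 18.8%), and in iPSC 39 (29.5% against 29.6%). The exact 95% interval of the pooled share held the share of all regions in each list but day 8, where it ran from 24.0 to 40.5. Among the 7 genes taken singly, 3 of 56 such intervals lay clear of the share of all regions: Pdgfra at day 10 and Eng at days 0 and 8. These intervals treat regions as separate draws, although regions of 1 gene share a locus.

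**Figure D1:**
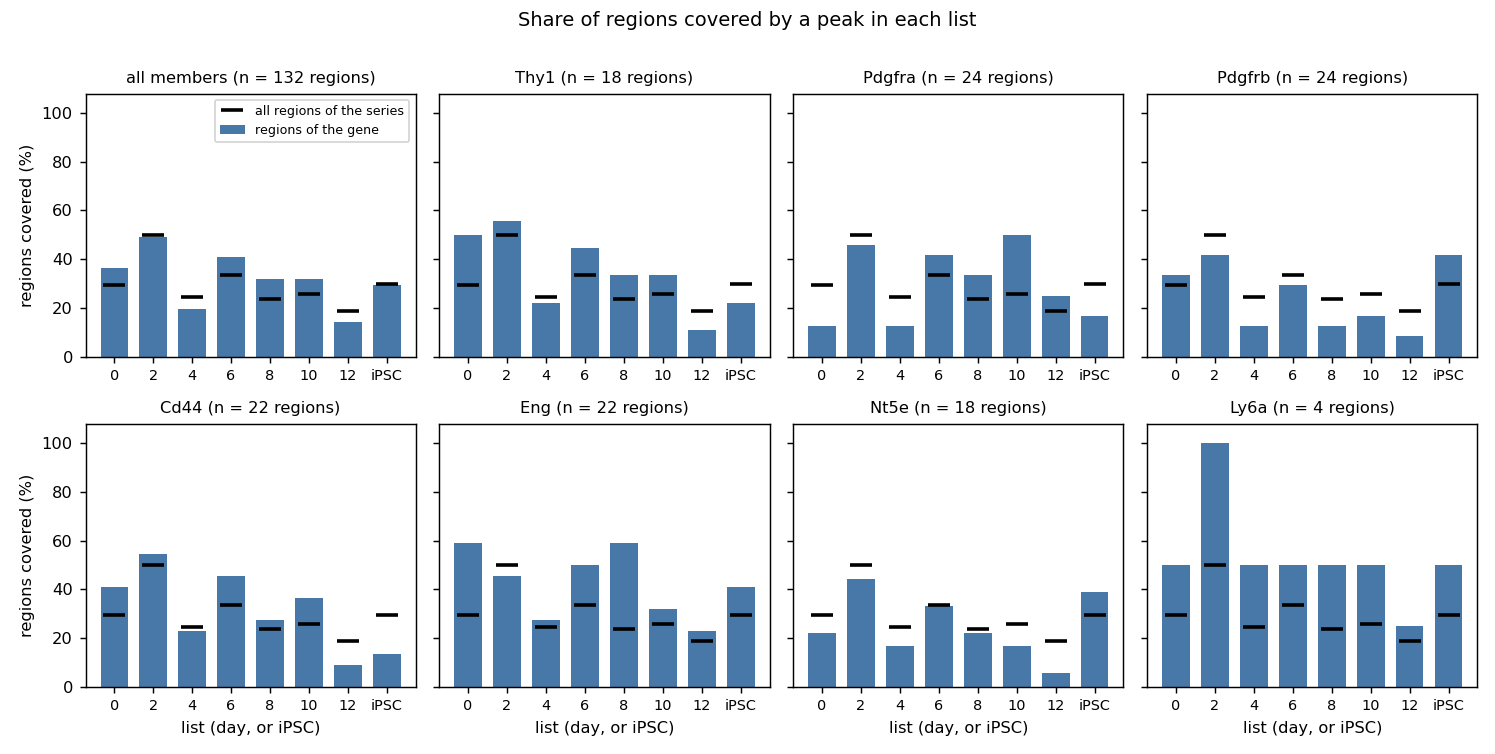
Bars show the percent of a gene's regions covered in each list, for the 132 regions pooled and for each gene, and black marks show the percent of all 165616 regions covered in the same list. The pooled bars follow the black marks, while Pdgfra is below them at day 0 (12.5% against 29.4%) and above them at day 10 (12 of 24 regions, against 25.7%).

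By end point, 31 regions were MEF-only (23.5%, against 19.3% of all regions), 22 iPSC-only (16.7% against 19.4%), 17 shared (12.9% against 10.2%) and 62 intermediate-only (47.0% against 51.1%). Thy1, Cd44 and Eng had more MEF-only than iPSC-only regions, Pdgfra, Pdgfrb and Nt5e fewer, and Ly6a had none of either. The side of Cd44 held under every alternative tried, and those of Pdgfra, Pdgfrb and Nt5e did not. With lists scaled to the background of day 12, Pdgfrb had 4 MEF-only and 3 iPSC-only regions and Nt5e 3 and 2, while Pdgfra had 0 and 2. With lists scaled to day 8, Pdgfrb had 4 and 4, Pdgfra 1 and 1 and Nt5e 2 and 4. Thy1 was level at 1 and 1 with the better-scored 50% of each list, and Eng at 2 and 2 among regions nearest to it. Of the 28 intervals for a class at a gene, 2 lay clear of the share of all regions, those of intermediate-only regions at Pdgfra and of shared regions at Eng. Kept to the 88 regions whose nearest gene was the member, 23 were MEF-only (26.1%) and 14 iPSC-only (15.9%).

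The platelet-derived growth factor receptor Pdgfra (chr5:75151322-75198206) was the member whose open chromatin lay most in the intermediates. Of its 24 regions, 18 (75.0%, exact 95% interval 53.3 to 90.2) were intermediate-only, against 51.1% of all regions. Most of these 18 had a peak in 1 list only, at percentiles from 1.29 to 43.2 of that list. Pdgfra had 2 MEF-only regions, 3 iPSC-only regions and 1 shared region. From day 0 to day 12 the lists covered 3, 11, 3, 10, 8, 12 and 6 regions, and the iPSC list 4. The share of its regions covered was thus highest at day 10 (12 of 24, interval 29.1 to 70.9%, against 25.7% of all regions) and was 12.5% at day 0, against 29.4%. Several of the 12 regions of day 10 had a peak in no other list.

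Some of these regions were covered early and others late. The 4 early lists were deeper than that of day 10, so all 42500 day 10 regions would have passed their thresholds. Scaling to depth therefore sorted out none of the 12 Pdgfra regions of day 10. Of these 12, 10 were absent from the day 0 list (83.3%, against 57.0% of all such regions). From the lists of days 2, 4 and 6, 8, 12 and 9 of them were absent (66.7%, 100.0% and 75.0%, against 47.8%, 60.3% and 54.3%). These shares rest on 12 regions, and no interval was computed for them. They also restate in part that the lists of days 0 and 4 covered only 3 of the 24 Pdgfra regions each. The region 7.28 kb before the span (chr5:75142921-75144038) had pileups of 14, 23 and 16 at days 0, 2 and 6, of 43, 49 and 12 at days 8, 10 and 12, and no peak at day 4 or in iPSC. Divided by the background pileup of the list, that is 7.15, 7.47 and 7.56 for the early lists and 63.0, 50.6 and 48.3 for the late ones. The early and late summits were not at the same place. Those of days 0, 2 and 6 lay within 1 bp of each other, and those of days 8, 10 and 12 lay 408, 408 and 562 bp from that of day 0. The day 2 and day 8 peaks did not overlap, nor did those of days 0 and 12. The day 6 peak, however, overlapped those of days 8, 10 and 12 by 431, 550 and 237 bp, and the day 0 peak overlapped that of day 10 by 137 bp. The values therefore describe neighbouring summits within 1 merged region, under peaks that partly overlap, and not 1 site over time. The authors' fold enrichment over the local background was 5.07, 5.35 and 4.47 early and 8.18, 6.09 and 5.21 late, a smaller difference. By the ratio to the list background, the Fpgs start near Eng also stood higher late (24.5, 21.1 and 22.7, then 68.9, 71.3 and 80.5). The Cd44 start did not exceed its day 0 value late (37.8, 21.7 and 13.7, then 27.9, 22.7 and 24.1). That ratio also depends on how much of a library lies outside peaks, and the part this played was not tested.

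A pair of regions that flank the gene were covered at days 8, 10 and 12 and in no other list. The one 12.9 kb before the span (chr5:75137597-75138403) had pileups of 20, 41 and 10 there. The one 11.6 kb past the span (chr5:75209846-75210449) had 35, 34 and 14 in the same lists, and its scores were at percentiles 89.9, 79.6 and 86.3. A further region 32.2 kb before the span (chr5:75118129-75119099) was covered at days 8 and 10 alone, with pileups of 11 and 30. Across all regions, 1.18% were covered at days 8, 10 and 12 alone, against 2 of the 132 member regions (1.52%), and both of those lay at Pdgfra.

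Regions covered only at days 2 to 6 lay both near the start and far from it, up to a midpoint 95.1 kb past it (days 2, 4 and 6). The region 2.21 kb before the span (chr5:75148436-75149109) was covered at days 2, 4 and 6 alone, with pileups of 70, 20 and 27. Its neighbour over the upstream end of the span (chr5:75149971-75151624) had pileups of 77, 32, 24 and 25 at days 2, 6, 8 and 10, of 12 in iPSC, and no peak at days 0, 4 and 12. The peaks of days 8 and 10 there did not overlap those of day 6 or iPSC, and the summits of the merged region spread over 1102 bp. Local background there was high: 22.3 fragments at day 2 and 10.2 at day 6, so that a summit of 77 reached only the 57.2 percentile at day 2. The start site itself (position 75152251) lay in a region covered at day 6 alone, with a pileup of 31 on a local background of 12.3. The intron or exon placement of these regions was not analysed here, as the gene table gives spans only.

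A region 4.1 kb into the gene (chr5:75155427-75157307) was the one Pdgfra region shared by MEF and iPSC. It had pileups of 44, 60, 33, 22, 41 and 14 at days 0, 2, 6, 8, 10 and 12, of 54 in iPSC, and no peak at day 4. Its peaks had no base common to all of them, and their summits spread over 1265 bp. Its score was at percentile 67.4 at day 0 and 89.1 in iPSC. A region 37.4 kb into the gene (chr5:75188970-75190324) was strongest in iPSC by percentile, with a pileup of 36 there (percentile 79.9) and of 30, 10 and 5 at days 2, 10 and 12. The day 10 peak there overlapped the iPSC peak by 13 bp and the day 2 peak not at all. No Pdgfra region was covered in all 8 lists.

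**Figure D2:**
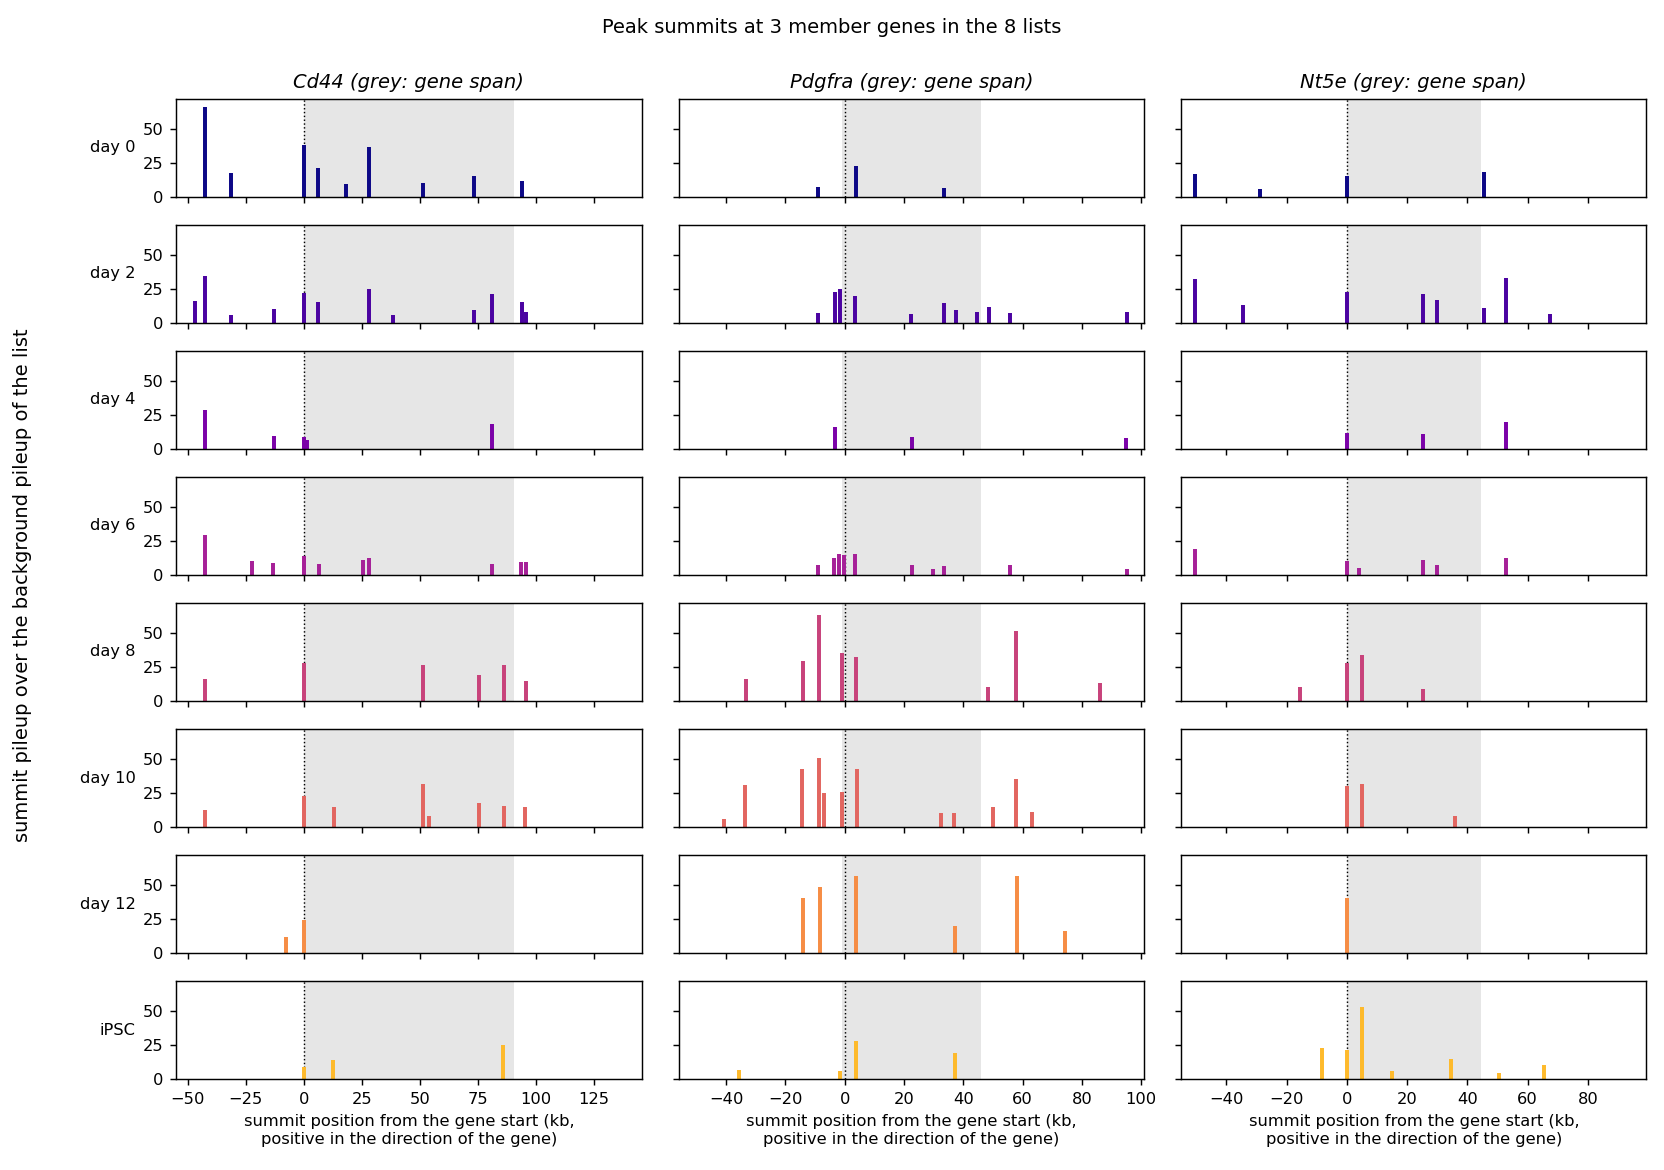
Peak summits at Cd44, Pdgfra and Nt5e in each of the 8 lists, plotted by distance from the gene start (kb, positive in the direction of the gene) against the summit pileup divided by the background pileup of the list (a ratio); grey marks the gene span and the dotted line the start. The highest bar at Cd44 is the upstream region at day 0 (65.9), while Pdgfra shows its highest bars at days 8, 10 and 12 and Nt5e in iPSC (53.2).

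Pdgfrb (chr18:61045127-61085067) encodes the sister receptor, which is typical of pericytes and fibroblasts. Its 24 regions comprised 6 MEF-only, 8 iPSC-only, 2 shared and 8 intermediate-only regions, and from day 0 to day 12 the lists covered 8, 10, 3, 7, 3, 4 and 2 of them, and the iPSC list 10. The iPSC-only share of 33.3% (interval 15.6 to 55.3) stood beside 19.4% of all regions, which lies inside the interval. Of these 8 iPSC-only regions, 6 lay nearer to a neighbouring gene than to Pdgfrb. Among the 10 regions nearest to Pdgfrb itself, 4 were MEF-only, 2 iPSC-only and 4 intermediate-only.

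The region over the end of the Pdgfrb span that adjoins Gm52351 (chr18:61044425-61045851) had pileups of 53, 66, 16 and 38 at days 0, 2, 4 and 6, of 18 in iPSC, and no peak at days 8, 10 and 12. Scaled to the depth of those 3 lists, the day 0 peak would have kept pileups of 18.5, 26.2 and 6.73 and would have passed the threshold in each. It was also called at the start of Gm52351, so it cannot be assigned to Pdgfrb alone. Its peaks had no base common to all of them, and their summits spread over 761 bp. Over the gene's body, a region 11.6 kb from the lower end (chr18:61055891-61057577) had pileups of 37, 40, 24 and 20 at days 0, 2, 4 and 6 and of 16 at day 10. Its summits spread over 888 bp, and the day 10 peak did not overlap those of days 4 and 6. Another at 27.0 kb (chr18:61071824-61072497) had 38, 28 and 19 at days 0, 2 and 6, and neither was covered in iPSC.

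The highest-scoring Pdgfrb-window region in iPSC belonged to the neighbourhood of Cdx1, a homeobox gene of the caudal family. That region (chr18:61034638-61035608) was covered in iPSC alone, with a pileup of 111 (percentile 96.7), and was called at the starts of Cdx1 and Gm52351. An iPSC-only region was also called at the start of Slc6a7, a proline transporter gene (chr18:61012213-61014205, pileup 61, percentile 85.0). Inside the Pdgfrb span, the iPSC-only regions were at 20.6 kb (chr18:61065253-61066102, pileup 15 at day 10 and 29 in iPSC) and at 32.3 kb (chr18:61077229-61077531, pileup 31 in iPSC).

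Endoglin (Eng, chr2:32646595-32682669) lies among 7 other protein-coding genes whose spans reach into its window, and 15 of its 22 regions were nearer to one of those. In all it had 6 MEF-only, 2 iPSC-only, 7 shared and 7 intermediate-only regions. From day 0 to day 12 the lists covered 13, 10, 6, 11, 13, 7 and 5 of them, and the iPSC list 9. The shared share of 31.8% (interval 13.9 to 54.9) stood above 10.2% of all regions, but 6 of the 7 shared regions were nearer to another gene. Regions at the starts of Fpgs (folate metabolism), Cdk9 (a kinase of transcription elongation) and Sh2d3c were covered in all 8 lists. The peaks of the Cdk9 region had no base common to all of them, and their summits spread over 1496 bp.

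The 7 regions nearest to Eng itself split evenly between the end points, with 2 MEF-only, 2 iPSC-only, 1 shared and 2 intermediate-only. The region at the start (chr2:32646521-32646963) was covered at day 0 alone with a pileup of 8, which is the lowest summit in that list, and its score was at percentile 0.0403. It would have passed at the depth of day 2, day 6 and iPSC, and would not have passed at that of days 4, 8, 10 and 12. The pass was narrow at day 6, with a Poisson −log10 p of 3.31 against a lowest of 3.23. In iPSC it was 3.24 against 3.21, so the absence of this region there says little. The strongest region of Eng at day 0 lay 33.7 kb into the gene (chr2:32679916-32680654), with pileups of 54, 53, 8, 29 and 9 at days 0, 2, 4, 6 and 8, and no peak at days 10 and 12 or in iPSC. The day 0 peak would have passed in each of those 3 lists.

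A pair of Eng regions had peaks only from day 8 on. The one 26.9 kb into the gene (chr2:32673256-32673711) had pileups of 19, 21 and 4 at days 8, 10 and 12 and of 16 in iPSC. The one at 21.5 kb (chr2:32667888-32668360) was covered at days 8 and 10 alone, with 18 and 22. The region 25.1 kb before the start, at the gene Ak1 (chr2:32621201-32621694), had pileups of 20, 12 and 15 at days 0, 8 and 10 and was absent at days 2, 4 and 6.

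The hyaluronan receptor Cd44 (chr2:102811141-102901669) held the best-scored MEF-only region of the whole set, and all of its 22 regions were nearest to Cd44. It had 8 MEF-only regions (36.4%, interval 17.2 to 59.3, against 19.3% of all regions, which lies inside the interval), 2 iPSC-only, 1 shared and 11 intermediate-only. From day 0 to day 12 the lists covered 9, 12, 5, 10, 6, 8 and 2 of them, and the iPSC list 3. Of the 9 covered at day 0, all of which would have passed at the depth of the iPSC list, 8 were absent there (88.9%, against 65.4% of all such regions).

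The best-scored of these lay 42.0 kb upstream of the span (chr2:102943714-102944826). Its pileups were 129, 105, 35, 62, 11 and 12 at days 0, 2, 4, 6, 8 and 10, with percentiles of 99.0, 90.7, 90.4, 93.3, 37.4 and 38.7, and it had no peak at day 12 or in iPSC. Over the background pileup of each list this was 65.9, 34.1, 28.5, 29.3, 16.1 and 12.4 for days 0 to 10. Scaled to the depth of day 12 the day 0 peak would still have had a pileup of 16.4, and at the depth of iPSC 125, and it would have passed the threshold of both lists.

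The start of Cd44 was nonetheless covered in every list. Its region (chr2:102900654-102902057) had pileups of 74, 67, 11, 29, 19, 22 and 6 at days 0, 2, 4, 6, 8, 10 and 12 and of 17 in iPSC, with percentiles from 92.1 at day 0 to 17.3 at day 4 and 39.8 in iPSC. The other strong region of day 0 lay 28.1 kb into the gene (chr2:102872666-102874399) with pileups of 71, 77 and 27 at days 0, 2 and 6, and was absent elsewhere. Start and distal elements of this gene thus differed in how many lists covered them.

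Cd44 also had regions of the later stages inside its span. The one 51.2 kb into the gene (chr2:102849971-102850929) had pileups of 19, 18 and 31 at days 0, 8 and 10, and none at days 2, 4, 6 and 12 or in iPSC. The day 0 peak overlapped those of days 8 and 10 by only 20 and 29 bp, with summits 194 and 184 bp apart. Another 85.8 kb into the gene (chr2:102815294-102816374) had 18 and 15 at days 8 and 10 and 47 in iPSC (percentile 89.1) and was absent from day 0 to day 6.

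Thy1 (chr9:44043384-44048579), the most used fibroblast marker of this set, had 6 MEF-only regions of 18 (33.3%, interval 13.3 to 59.0, which includes the 19.3% of all regions), 1 iPSC-only, 3 shared and 8 intermediate-only. From day 0 to day 12 the lists covered 9, 10, 4, 8, 6, 6 and 2 of them, and the iPSC list 4. The region over the lower end of the short Thy1 span (chr9:44042923-44044235) had pileups of 17, 40, 18, 24, 6 and 10 at days 0, 2, 4, 6, 8 and 10 and 17 in iPSC. It had no peak at day 12, where the day 0 peak would not have passed at that depth. The pileup was the same at day 0 and in iPSC, 17, in lists of nearly the same depth. The local background there was 5.00 at day 0 and 1.90 in iPSC, so the authors' fold enrichment was 3.00 and 6.21, and the score was at percentiles 10.7 and 50.6.

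MEF-only peaks of Thy1 lay on both sides of that region. One 3.10 kb below the span (chr9:44039813-44040281) was covered at day 0 alone, with a pileup of 44 (percentile 83.9), and would have passed in every later list. One just past the upper end (chr9:44048600-44049964) had pileups of 20, 25 and 18 at days 0, 2 and 6 and was absent elsewhere, and its day 2 and day 6 peaks did not overlap. A region 49.2 kb below the span (chr9:43993192-43994212) was absent at day 0 and had pileups of 104, 36, 29, 14 and 12 at days 2, 4, 6, 8 and 10 and 14 in iPSC.

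The best-scored region of the Thy1 window was covered in all 8 lists and lay nearer to Usp2, a deubiquitinase gene. It lies 18.2 kb above the Thy1 span (chr9:44066770-44067735), with pileups of 77, 84, 32, 77, 50, 74 and 16 at days 0 to 12 and 38 in iPSC. Its percentile was between 85.0 (iPSC) and 98.4 (day 6). It was 1 of 7 member regions covered in all 8 lists (5.30%, against 5.42% of all regions), and the others were the starts of Cd44, Nt5e, Fpgs, Cdk9, Sh2d3c and Ly6e.

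Nt5e (chr9:88327609-88372089) had more iPSC-only than MEF-only regions, 6 against 3 of 18, with 1 shared and 8 intermediate-only regions. Scaled to the background of day 12 it had 2 against 3. The iPSC-only share of 33.3% had an interval of 13.3 to 59.0, which includes the 19.4% of all regions. From day 0 to day 12 the lists covered 4, 8, 3, 6, 4, 3 and 1 of them, and the iPSC list 7. Its start, with the CpG-rich window printed above (chr9:88327347-88328154), had pileups of 30, 70, 14, 21, 19, 29 and 10 at days 0 to 12 and 41 in iPSC. It was the 1 Nt5e region covered in every list.

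The best-scored Nt5e region in iPSC lay 5.1 kb into the gene (chr9:88332403-88333034). It had pileups of 23 and 31 at days 8 and 10 and of 101 in iPSC (percentile 97.7), and no peak from day 0 to day 6 or at day 12. A region 7.42 kb upstream (chr9:88319049-88320184) was covered in iPSC alone, with a pileup of 43 (percentile 86.6). Both lie nearer to Nt5e than to any other gene, as did 4 of the 6 iPSC-only regions.

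Other Nt5e regions belonged to the early stages. The farthest upstream, 49.9 kb from the span (chr9:88276128-88277709), had pileups of 32, 98 and 41 at days 0, 2 and 6. The one 0.896 kb past the gene's end (chr9:88372985-88373771) had 35 at day 0 and 33 at day 2. One 7.92 kb past the end (chr9:88380004-88380799), nearer to Snx14, was covered at days 2, 4 and 6 alone with pileups of 101 (percentile 97.4), 24 and 27. All 3 were absent from day 8 on and in iPSC.

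Ly6a (chr15:74994877-74998031), the gene of the stem cell antigen Sca-1, had no covered start in any list and no region nearest to it. Its 4 regions all lay below the span and nearer to Ly6e or Ly6i. The Ly6e start (chr15:74954927-74956432) was covered in all 8 lists, with pileups of 47, 53, 23, 35, 14, 17 and 8 at days 0 to 12 and 61 in iPSC. The region 26.1 kb below the Ly6a span (chr15:74967709-74968732) had 27, 75, 26, 43, 13 and 22 at days 0 to 10 and 16 in iPSC, and the other 2 were covered at day 2 alone with pileups of 16 and 18. Ly6a sits in a cluster of similar genes, and no list had a peak at the starts of Ly6c1, Ly6c2, Ly6i, Ly6f, Ly6g and Ly6h either. The part that reads shared between similar copies played in this was not tested.

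**Figure D3:**
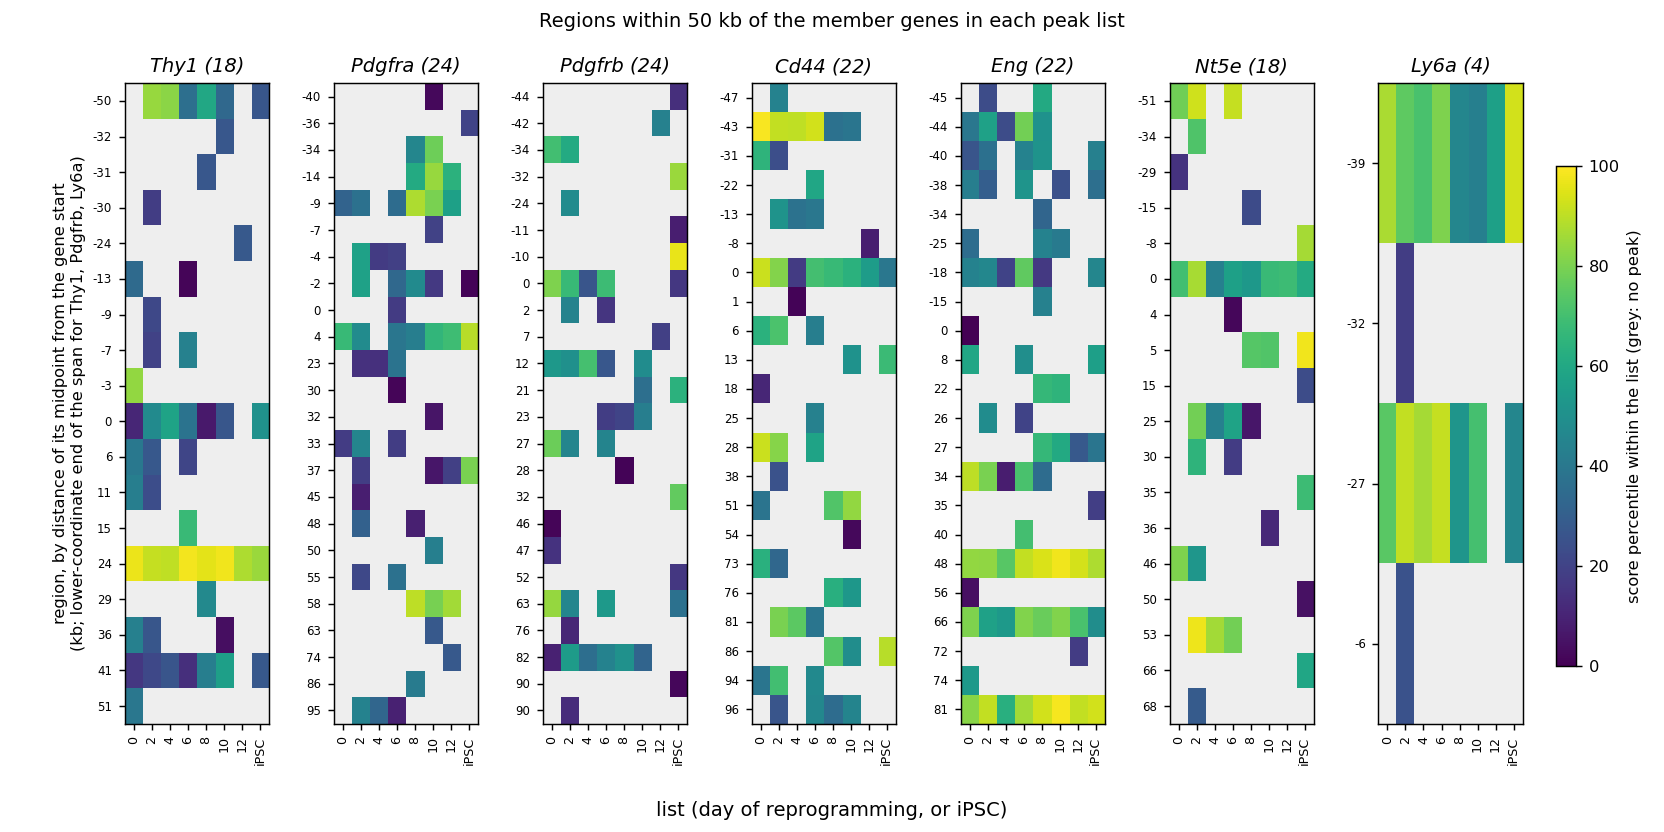
Each row is 1 of the 132 regions, ordered by the distance of its midpoint from the gene start (kb), or from the lower end of the span for Thy1, Pdgfrb and Ly6a, and each column is a list (day, or iPSC); colour gives the percentile of the peak's score within its list and grey means no peak. The starts of Cd44 and Nt5e are filled across all 8 columns, while the upstream Cd44 region at −42.6 kb is bright from day 0 to day 6 and empty at day 12 and in iPSC.

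The class went with the kind of site, in the members as over the genome. Shared regions had a median width of 1313 bp, and 10 of the 17 (58.8%, against 61.5% of all shared regions) lay within 1 kb of a gene start. MEF-only regions had a median of 787 bp and 3 of 31 at a start (9.68% against 4.63%), and iPSC-only regions 624.5 bp and 3 of 22 (13.6% against 7.30%). Intermediate-only regions were the narrowest, with a median of 400.0 bp and 1 of 62 at a start (1.61% against 2.97%). A width here is that of the merged region, which is at least as wide as each of its peaks. A shared region holds peaks of 2 or more lists by definition, and peaks of shallow lists were narrower (median 377 bp at day 8 and 264 bp at day 12, against 601 bp at day 0). The part of merging and depth in the order of widths was not tested.

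Few of the regions lasted, in the members as over the genome. Of the 132, 64 had a peak in 1 list only (48.5%, against 52.0% of all regions), and 17 lay at the start of some protein-coding gene (12.9% against 10.1%). Regions with a peak in 1 or more of the lists of days 0 to 6 and in no later one numbered 53 (40.2% against 43.3%). Regions first seen at day 8 or 10 numbered 25 (18.9% against 15.4%), and 8 of those had a peak in both lists (6.06% against 4.59%). From the other end, 22 of the 39 member regions of iPSC had no day 0 peak (56.4% against 65.6%). All 39 would have passed at the depth of day 0, but so would all 49050 iPSC regions, because the day 0 list was slightly deeper.

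The MEF-only regions left the lists at different stages. Of the 31, the lists of days 2, 4 and 6 still covered 19, 5 and 14 (61.3%, 16.1% and 45.2%, against 64.1%, 29.0% and 52.4% of all MEF-only regions). The lists of days 8, 10 and 12 covered 7, 7 and 1 (22.6%, 22.6% and 3.23%, against 14.4%, 13.0% and 3.64%). The last list to cover them was day 0 for 9, day 2 for 5, day 6 for 8, day 8 for 2, day 10 for 6 and day 12 for 1. Of the 22 iPSC-only regions, 14 were covered in no other list. The lists of days 2, 4 and 6 covered 3, 1 and 2 of the 22 (13.6%, 4.55% and 9.09%, against 15.5%, 6.79% and 8.77% of all iPSC-only regions). The lists of days 8, 10 and 12 covered 5, 8 and 2 (22.7%, 36.4% and 9.09%, against 15.1%, 17.6% and 9.96%), and the interval for day 10 ran from 17.2 to 59.3, which includes the 17.6%.

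Because later lists were shallower, each absence was set against what the depth allowed. All 48 day 0 regions would have passed the threshold of the iPSC list if scaled to its depth, and 31 of them were absent there (64.6%, against 65.4% over all regions). For day 8, 38 would have passed and 21 of those were absent (55.3% against 55.7%), and for day 10, 42 would have passed and 25 were absent (59.5% against 59.6%). For day 4, 45 would have passed and 28 were absent (62.2% against 51.3%). At day 12 only 18 would have passed, of which 11 were absent (61.1% against 57.9%), so 28 of the 39 absences there were not readable at that depth. For days 2 and 6 all 48 would have passed, and 13 (27.1% against 25.2%) and 17 (35.4% against 35.3%) were absent. As a group, the member regions thus dropped out of most lists at about the rate of all day 0 regions. The share at day 4 was higher, but it rests on 45 regions and its interval was not computed. Without scaling, 31 of the 48 were absent at day 4 (64.6%, exact 95% interval 49.5 to 77.8), so the counting error is wide. Of the 28 day 0 regions nearest to a member, 22 had no peak at day 4 (78.6%) and 23 none in iPSC. Those counts take no account of depth, which matters for day 4 only, as all 48 would have passed in iPSC. The share of all regions was not computed under this rule. It also leaves out 12 of the 17 shared regions, so these shares are not to be set against those above.

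**Figure D4:**
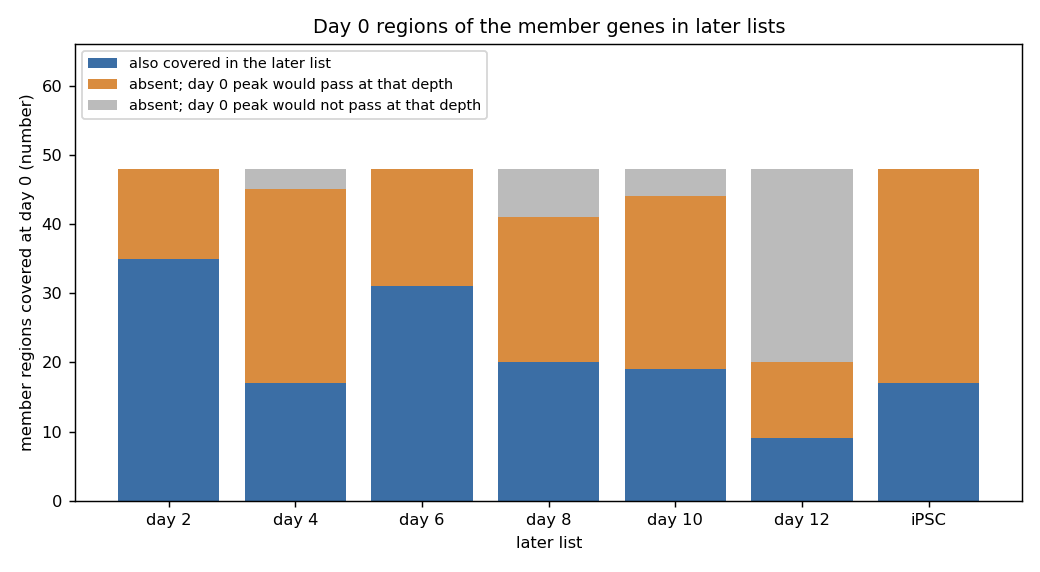
The 48 member regions covered at day 0, by their state in each later list: covered there (blue), absent although the day 0 peak would pass at that depth (orange), or absent where it would not pass (grey); the axis counts regions. Grey is seen at days 4, 8, 10 and 12 and is largest at day 12 (28 regions), and the iPSC bar holds 17 covered and 31 absent regions with no grey.

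Other surface genes gave a scale for these counts. At 20 further fibroblast and mesenchymal surface genes, 29.3% of 437 regions were MEF-only and 15.6% iPSC-only, and 14 genes had more MEF-only regions, 3 more iPSC-only and 3 an equal number, against 31.6% of all protein-coding genes with more MEF-only regions. Igf1r (the insulin-like growth factor receptor) had 18 MEF-only and 8 iPSC-only regions, Alcam (an adhesion molecule) 9 and 0, and Cspg4 (the NG2 proteoglycan) 11 and 3, while Anpep had 4 and 7 and Tnfrsf12a 1 and 5. At 12 surface genes of pluripotent and epithelial cells the shares were 12.9% and 25.8% of 225 regions, with 2 genes on the MEF side, 9 on the iPSC side and 1 equal. Kit had 2 MEF-only and 7 iPSC-only regions and Tdgf1 1 and 6, while Cdh1 had 6 and 3 and Il6st 2 and 1. With 23.5% and 16.7%, the 7 member genes lay between these lists. Of all 21887 protein-coding genes, 6926 had more MEF-only regions, 9001 more iPSC-only and 5960 an equal number.

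The ligands and partners of the members were close to the members in shares of regions, but not in the split of genes. At 20 such genes, 22.4% of 339 regions were MEF-only and 18.0% iPSC-only. Of these genes 13 were on the MEF side, 5 on the iPSC side and 2 equal, against 3, 3 and 1 of the 7 members. Among ligands of the PDGF receptors, Pdgfd had 9 MEF-only and 4 iPSC-only regions and Pdgfa 7 and 3, while Pdgfb had 3 and 7 and Pdgfc 6 and 11. Msn (moesin), which links CD44 to actin, had 6 and 2. At 10 endothelial and blood genes the shares were 21.4% and 20.7% of 140 regions. Of these genes 6 were on the MEF side, 3 on the iPSC side and 1 equal, so a lean of genes to the MEF side was not particular to fibroblast genes. Cdh5 had 4 and 2, Csf1r 6 and 4, Itgam 3 and 1, Tie1 1 and 2 and Tek 1 and 7. Csf1r is a neighbour of Pdgfrb, so their windows share regions. At 10 neighbours in the Ly6 cluster, some of which share regions with Ly6a, 4 and 6 of 30 regions were MEF-only and iPSC-only, with Ly6h at 2 and 0, Lynx1 at 1 and 5 and Ly6d at 0 and 5.

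**Figure D5:**
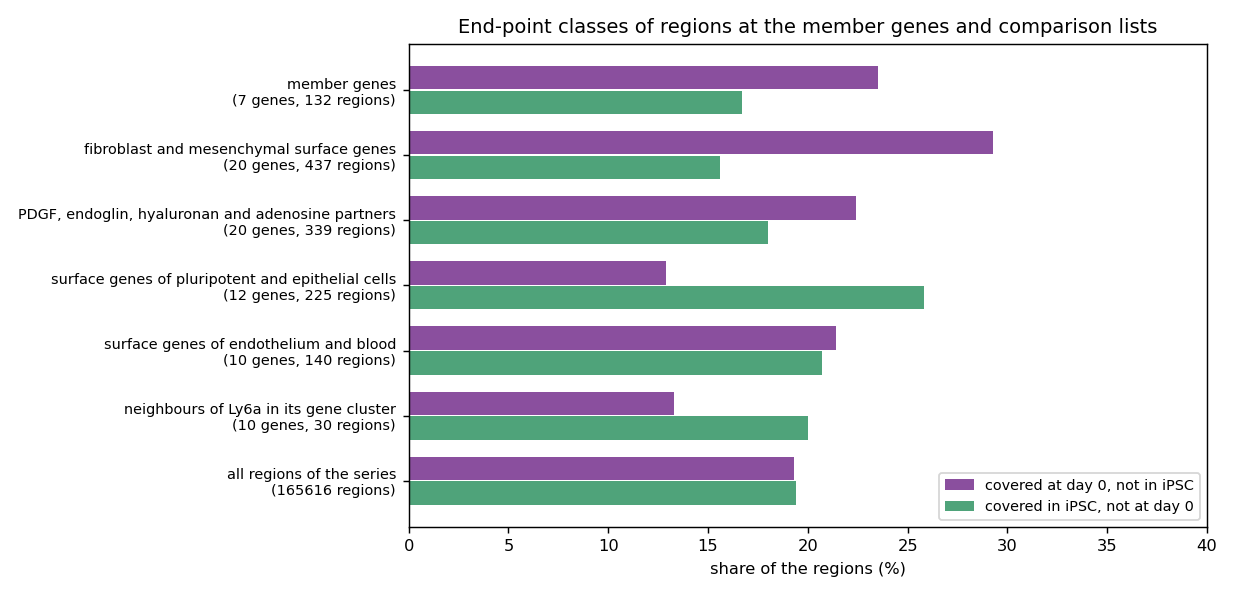
Percent of regions covered at day 0 and not in iPSC (purple) and in iPSC and not at day 0 (green) for the 7 member genes, the 5 comparison lists (regions within 50 kb of their genes) and all regions of the series. The member bars (23.5% and 16.7%) lie between the fibroblast list (29.3% and 15.6%) and all regions (19.3% and 19.4%).

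The window of 50 kb set which regions counted. The farthest regions inside it lay 49.9 kb from Nt5e (days 0, 2 and 6) and 49.8 kb from Pdgfrb (day 2). The nearest outside lay 50.5 kb from Cd44 (day 0) and 51.6 kb from Pdgfrb (days 0, 2, 4, 6 and 10).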

How the data were processed

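ATAC-seq was run on 16 samples, 2 per stage. Per the submitters' processing notes, the tools were MACS2 2.1.2, fastp 0.20.1, deepTools 3.4.3, Bowtie2 2.2.5 and SAMtools, and the build was mm10. Not given in the sources used here are the role and order of these tools, any shift for the Tn5 offset, and the way both samples of a stage entered its list. Each stage has 1 peak list deposited by the authors, which gives per peak a score, a fold enrichment (a ratio), and the −log10 of its p-value and q-value. In the deposited lists, 99.994% of peaks or more had a score equal to 10 times the −log10 q-value rounded down, and the highest q-value of a list was between 0.0487 and 0.05. These values belong to the authors and were used to rank peaks within a list and to recover depth.

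In this caller the fold divides the summit pileup by the local background after adding 1 to each, and the p-value comes from a Poisson distribution. Both were solved for a whole-number pileup and a background that gave the deposited −log10 p within 0.001, which succeeded in every list for 99.998% of peaks or more. A list's lowest background was taken as its background pileup, in place of a stated depth. To set an absence against depth, the pileup and background of a peak were multiplied by the ratio of background pileups (never raised above 1) and the scaled peak was compared with the lowest −log10 p of the other list.

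Peaks on chromosomes 1 to 19, X and Y of the 8 lists (31915 to 83022 peaks, without the 36 to 57 per list that lay on other sequences) were merged where they overlapped by at least 1 bp. Gene spans came from RefSeq's table of GRCm38.p6, the assembly of mm10, with 21887 protein-coding genes. It gives no strand, so start sites came from the promoter table, or either end of the span where that has no entry. Intervals were computed at 95% by the exact Clopper-Pearson method and cover counting error only. Python 3.11.15, numpy 2.4.6, scipy 1.17.1, pandas 2.3.3 and matplotlib 3.10.9 were used, and the recovery was tested on simulated peaks.

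The member genes and all lists were chosen with earlier results of these data known. Named regions were those at a gene start, the best-scored at day 0 and in iPSC, those covered in the most lists, and others shown for their order of coverage, which were chosen after their values were seen. From each comparison list, up to 3 genes with the largest excess of MEF-only and up to 2 with the largest excess of iPSC-only regions are named. Other genes of these lists are named only for their covered starts, and were chosen after those were seen. Alternatives tried were windows of 20 and 100 kb, a start distance of 2.5 kb, regions nearest to a member only, the better-scored 50% of each list, lists of equal length, a stricter overlap rule, and lists scaled to the background of day 8 or day 12. Added after the data were seen were starts counted only by a peak of the list itself, and lists compared by direct overlap of their peaks.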

Additional observations from a re-analysis of the deposited data

How the results depend on the processing

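No paired analysis was possible because each stage has 1 peak list, which carries no replicate number, and no replicate was left out for the same reason. Of 193 values recomputed under the alternatives, 144 moved by less than their interval and 49 moved by more. None moved by more with a window of 20 or 100 kb, with a start distance of 2.5 kb, or with the 2 rules added after the data were seen (starts by a list's own peak, and direct overlap of peaks).

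With the better-scored 50% of each list, coverage of the member regions was 18.9%, 22.0%, 9.09%, 16.7%, 15.9%, 14.4% and 8.33% from day 0 to day 12 and 14.4% in iPSC, with 13.6% MEF-only and 9.09% iPSC-only, and the covered starts were 14.3% at day 4 and 28.6% in iPSC. With lists of equal length it was 25.8%, 15.2% and 19.7% for days 0, 2 and 6 and 20.5% for iPSC, with 15.9% MEF-only and 10.6% iPSC-only, and 58.8% of day 0 regions were absent at day 2. Both keep fewer peaks by construction. Shares of all regions under the same setting are given only below, for lists scaled to day 8 or day 12. Shares of all genes are given for no setting. Values without such a share describe the setting and not the members. With the larger part of a region required, coverage was 9.85%, 28.0%, 15.9%, 22.0% and 6.06% for days 4, 6, 8, 10 and 12. The absent share of day 0 regions was then 86.8%, 60.5%, 84.2%, 78.9% and 97.4% for the same days and 78.9% for iPSC. Peaks of the shallow lists were narrower (median 264 bp at day 12 and 705 bp at day 2).

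Kept to regions nearest to a member, coverage in iPSC was 21.6%, and 78.6% of day 0 regions were absent at day 4 and 82.1% in iPSC. Scaled to the background of day 8, coverage was 32.6% at day 2 and 29.5% at day 6, against 34.4% and 23.1% of all regions. Scaled to that of day 12, it was 13.6%, 13.6%, 7.58%, 7.58% and 19.7% for days 0, 2, 4, 6 and 10 and 9.09% for iPSC. Over all regions it was 9.78%, 15.4%, 9.46%, 8.38%, 15.8% and 9.39% for the same lists. MEF-only regions were then 10.6% and iPSC-only regions 6.06%, against 6.24% and 5.85% of all regions. Under that scaling 55.6% of day 0 regions were absent at day 6 and 61.1% at day 12, and covered starts were 28.6% at day 2 and 0.0% at days 4 and 6 and in iPSC. Over the 7 genes pooled, more MEF-only than iPSC-only regions were counted under each of these settings for which both are given here. These settings reuse many of the same regions and are not separate evidence. In the main setting the exact 95% intervals were 16.55 to 31.65 for MEF-only and 10.75 to 24.14 for iPSC-only regions. They include the 19.3% and 19.4% of all regions.

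Depth limits what an absence says at day 12, where only 18 of the 48 day 0 peaks would pass. The background pileup stands in for depth, and the scaling takes the local background to shrink with it. Windows reach into neighbouring genes: 44 of the 132 regions were nearer to another gene. Feeder DNA in the iPSC samples and reads shared between similar Ly6 copies were not tested.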

Other observations

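The genes whose regions were covered most like those of the 7 member genes pooled were not surface markers as a group. Likeness was the Euclidean distance over the 8 lists between the share of a gene's regions covered, less that of all regions, and the same for the members, among 7530 genes with at least 15 regions outside the member windows. The 5 nearest were Cpm, a membrane carboxypeptidase (distance 0.0767), Ssbp3 (0.0791), Abhd2 (0.0879), LOC115488470 (0.0901) and Ncoa3, a nuclear receptor coactivator (0.0918), against a median distance of 0.345. The members themselves were farther from their own pool: Thy1 0.177, Cd44 0.200, Nt5e 0.279, Pdgfrb 0.323, Pdgfra 0.353, Eng 0.402 and Ly6a 0.704, the last with 4 regions only. A pool averages over more regions than a single gene, so its distances to single genes are not on the same footing as a test.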
